A study of Mus musculus with 3 samples.

Results

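The nuclear genes of oxidative phosphorylation were taken as all protein-coding genes whose symbol begins with Nduf and a, b, c, s or v and a number, is Sdha to Sdhd, or begins with Uqcr, with Cox4 to Cox8 and a letter, or with Atp5. This gave 87 of 21887 protein-coding genes of the RefSeq annotation of GRCm38.p6, the assembly of mm10. Of these, 40 belong to complex I, 4 to complex II, 8 to complex III, 18 to complex IV and 17 to complex V by their symbol. Binding of EZH2, the methyltransferase of polycomb repressive complex 2, had been profiled by ChIP-seq in C57BL/6 bone marrow-derived macrophages, which were grown from marrow of adult mice for 5 days with M-CSF. The NT group was left untreated, and the LPS group received lipopolysaccharide, a bacterial ligand of a Toll-like receptor, for 2 h at a dose not given in the labels. The stimulated track is named TLR by its authors and was taken as the LPS sample, the only stimulated one with EZH2. Each group had 1 EZH2 library, so no difference below has a replicate check. The labels name no genetic change in any group and do not say how many mice gave the marrow. ChIP-seq holds no expression, so the labelled cell type was not checked against markers here.

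The respiratory chain of the inner mitochondrial membrane passes electrons from NADH (complex I) and succinate (complex II) through complex III to complex IV, where oxygen is reduced, and complex V makes ATP from the proton gradient. Apart from the subunits encoded in mitochondrial DNA, every subunit comes from a nuclear gene, and most of these genes are transcribed in nearly all cells. Macrophages given LPS are known to shift their energy metabolism from oxidative phosphorylation towards glycolysis. EZH2 is best known at CpG-rich promoters of silent developmental genes.

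In untreated macrophages 38 of the 87 genes (43.7%, 95% Wilson interval 33.7 to 54.1%) had an EZH2 interval no more than 2.5 kb from an end of the annotated gene, beside 38.2% of all protein-coding genes. After LPS 8 genes had one (9.2%, 4.73 to 17.1%), beside 16.2% of all protein-coding genes. An interval in both libraries was found at 7 genes (8.05% of the 87, 15.6% of all genes), in NT alone at 31 (35.6%, 22.6% of all genes) and in LPS alone at 1 (1.15%, 0.535% of all genes), while 48 had none. The counting intervals of the NT and LPS shares held the share of all genes, and that of the share in NT alone (26.4 to 46.1%) did not. Wilson intervals cover counting error only and treat genes as independent.

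An interval is scored by the authors' value at its summit, a whole number whose unit is not given. Across the 38 genes with an NT interval, the highest NT value of a gene ran from 15 to 71 with a median of 25.5, and over all protein-coding genes with an NT interval the range was 11 to 253 and the median 28. At the 8 genes with an LPS interval the values ran from 9 to 38 with a median of 14, against 8 to 93 and a median of 18 over all genes. Since depth is not known for either library, a lower LPS value or a missing LPS interval cannot be read as less EZH2.

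The promoters of 7 members are shown because they span the pattern found: 3 were met by intervals of both libraries (Ndufb1, Uqcrh and Atp5b), 2 by an NT interval alone (Uqcrfs1 and Cox8a) and 2 by none (Sdha and Cox8b). Each runs 5′ to 3′ on the gene's strand from 250 bases before to 50 bases after the annotated start, from RefSeq on GRCm38.p6, and capitals mark CpG dinucleotides. Their positions are chr12:101975689-101975988, minus strand (Ndufb1), chr4:116075021-116075320, minus strand (Uqcrh), chr10:128083057-128083356, plus strand (Atp5b), chr13:30545267-30545566, minus strand (Uqcrfs1), chr19:7217567-7217866, minus strand (Cox8a), chr13:74350191-74350490, minus strand (Sdha) and chr7:140900397-140900696, minus strand (Cox8b).
Ndufb1: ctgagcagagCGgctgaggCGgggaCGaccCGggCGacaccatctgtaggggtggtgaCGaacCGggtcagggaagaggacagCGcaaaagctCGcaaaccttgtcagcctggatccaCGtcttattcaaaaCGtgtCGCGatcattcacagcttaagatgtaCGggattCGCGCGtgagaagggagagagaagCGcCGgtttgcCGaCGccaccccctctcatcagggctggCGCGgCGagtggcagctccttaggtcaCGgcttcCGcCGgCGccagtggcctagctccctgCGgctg
Uqcrh: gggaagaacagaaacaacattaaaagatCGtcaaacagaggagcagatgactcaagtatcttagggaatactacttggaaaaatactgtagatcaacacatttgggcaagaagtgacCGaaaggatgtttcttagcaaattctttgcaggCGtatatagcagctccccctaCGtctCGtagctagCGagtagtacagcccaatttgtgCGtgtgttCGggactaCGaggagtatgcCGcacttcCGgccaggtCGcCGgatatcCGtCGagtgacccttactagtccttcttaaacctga
Atp5b: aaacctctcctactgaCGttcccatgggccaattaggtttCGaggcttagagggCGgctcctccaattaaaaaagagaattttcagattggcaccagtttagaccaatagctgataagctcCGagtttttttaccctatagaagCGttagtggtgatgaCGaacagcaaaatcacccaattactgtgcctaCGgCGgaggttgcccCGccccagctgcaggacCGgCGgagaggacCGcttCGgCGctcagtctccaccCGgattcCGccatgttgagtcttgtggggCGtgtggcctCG
Uqcrfs1: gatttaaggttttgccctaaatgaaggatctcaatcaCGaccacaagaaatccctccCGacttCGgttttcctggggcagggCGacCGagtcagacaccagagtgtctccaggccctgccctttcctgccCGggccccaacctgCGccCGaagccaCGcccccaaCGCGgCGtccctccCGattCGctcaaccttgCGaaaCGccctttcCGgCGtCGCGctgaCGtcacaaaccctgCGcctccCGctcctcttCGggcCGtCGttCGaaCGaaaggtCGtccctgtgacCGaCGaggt
Cox8a: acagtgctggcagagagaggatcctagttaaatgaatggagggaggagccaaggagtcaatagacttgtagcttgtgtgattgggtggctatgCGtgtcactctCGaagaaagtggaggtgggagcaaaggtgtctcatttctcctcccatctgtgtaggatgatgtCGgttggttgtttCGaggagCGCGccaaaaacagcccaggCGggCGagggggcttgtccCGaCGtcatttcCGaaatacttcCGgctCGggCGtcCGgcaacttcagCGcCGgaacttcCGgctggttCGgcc
Sdha: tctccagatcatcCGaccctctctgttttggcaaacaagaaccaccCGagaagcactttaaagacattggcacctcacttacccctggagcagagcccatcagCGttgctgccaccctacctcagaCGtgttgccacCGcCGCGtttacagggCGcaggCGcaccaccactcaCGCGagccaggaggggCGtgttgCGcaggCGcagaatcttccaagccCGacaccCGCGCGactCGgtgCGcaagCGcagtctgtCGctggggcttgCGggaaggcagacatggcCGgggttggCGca
Cox8b: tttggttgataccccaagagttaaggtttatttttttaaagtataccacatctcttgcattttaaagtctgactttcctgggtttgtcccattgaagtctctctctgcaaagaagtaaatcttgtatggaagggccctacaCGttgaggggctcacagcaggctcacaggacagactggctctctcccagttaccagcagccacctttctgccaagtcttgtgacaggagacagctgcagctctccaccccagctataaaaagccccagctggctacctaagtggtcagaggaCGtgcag
These 300 bases hold 29 CpG at Ndufb1, 15 at Uqcrh, 18 at Atp5b, 31 at Uqcrfs1, 19 at Cox8a, 25 at Sdha and 2 at Cox8b. Cox8b encodes the muscle form of a complex IV subunit, and its promoter is the poorest in CpG of the 70 member promoters in the reference table. Sdha, with 25, shows that a CpG-rich promoter need not have an interval in either library.

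Complex I, the NADH dehydrogenase, held 21 of the 38 genes with an NT interval. This was 52.5% of its 40 genes (Wilson interval 37.5 to 67.1%), beside 38.2% of all protein-coding genes. An LPS interval was found at 4 genes of the complex (10%, 3.96 to 23.1%), beside 16.2% of all protein-coding genes. Both Wilson intervals held the share of all genes. Ndufb1, an accessory subunit, had the highest NT value of the complex, 44, and 14 in LPS, a ratio of 0.318, the lowest among the members with both. Its NT interval ran from 101975086 to 101976652 on chromosome 12 and also met an end of Cpsf2, a gene of mRNA 3′ end processing, so the summit cannot be given to either gene. Ndufb2 (36), Ndufb6 (35), Ndufb9 (34), Ndufs3 (33) and Ndufa13 (32) followed with NT intervals and no LPS interval.

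Among the subunits of complex I that carry the flavin or iron-sulfur clusters, Ndufs1 had values of 28 in NT and 12 in LPS. NT intervals alone were found at Ndufv2 (21), Ndufs8 (20) and Ndufv1 (18), and Ndufs7 had no interval within 2.5 kb. None of these values was above 28, the NT median over all genes. At Ndufs8 the summit lay 18 bp from an end of Tcirg1, a subunit gene of the vacuolar proton pump.

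Ndufa4l2, a paralogue of Ndufa4 known from hypoxic cells, had another shape. Its NT interval was the widest of all members' NT intervals, 6288 bp from 127508884 to 127515171 on chromosome 10, with a value of 36, and its summit lay inside the gene, 3430 bp from the nearest gene end. In LPS the same stretch held 3 intervals with values of 15, 14 and 23, and the ratio of 0.639 was the highest among the members with both. The NT interval also met the windows of Shmt2 and Stac3, and the window of Stac3 was met in LPS too. The 42 NT intervals of the members had a median width of 1130.5 bp, against 1303 bp for NT intervals at other genes. Ndufa4 itself, which is now counted with complex IV in many descriptions, lay 1699729 bp from the nearest NT interval, the longest such gap among the members.

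No gene of complex II, the succinate dehydrogenase, had an interval in either library. With 4 genes the 95% Wilson interval reaches 49.0%, so this count of 0 does not separate the complex from the others. The nearest NT intervals lay 4525 bp from Sdha, the flavoprotein, 12758 bp from Sdhd and 26317 bp from Sdhc, both membrane anchors, and 30375 bp from Sdhb, the iron-sulfur subunit.

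In complex III, the cytochrome bc complex, 4 of 8 genes had an NT interval (50%, 21.5 to 78.5%), beside 38.2% of all protein-coding genes. Uqcrfs1, the Rieske iron-sulfur protein, had an NT value of 36 with the summit 12 bp before its annotated start, met no other gene's window, and had no LPS interval. Uqcrh, the hinge protein, had 25 in NT and 12 in LPS, and both intervals also met an end of Lrrc41. Uqcrq (18) and Uqcrc2 (17) were near the low end of the members' NT values. Uqcrc1, Uqcr10, Uqcr11 and Uqcrb had no interval.

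Complex IV, cytochrome c oxidase, had NT intervals at 5 of 18 genes (27.8%, 12.5 to 50.9%), beside 38.2% of all protein-coding genes. No gene of the complex had an LPS interval (Wilson interval 0 to 17.6%), beside 16.2% of all genes. Cox4i1, the widely expressed form of the largest nuclear subunit, had 31, on an interval that also met Emc8 and Gm27021. Cox8a had 28, Cox7a2l, a supercomplex assembly factor, 21, Cox6b2 17 and Cox6c 15, the lowest NT value of the members. Cox5a is a case the window missed. The annotated gene begins well before the start given in the promoter table, and an NT interval met the 300-base promoter at that inner start without coming within 2.5 kb of a gene end.

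Of the 8 isoforms known from certain tissues or conditions, Ndufa4l2 and the testis form Cox6b2 had an NT interval. The others, Cox6a2, Cox7a1 and Cox8b of heart and muscle, Cox7b2 and Cox8c of testis, and Cox4i2 of lung and hypoxic cells, had none in either library. This made 2 of 8 (25%) beside 36 of 79 (45.6%) for the remaining members, with Wilson intervals of 7.15 to 59.1% and 35.0 to 56.5% that overlap.

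Complex V, the ATP synthase, held the highest values of the whole set. Atp5d, the delta subunit of F1, the catalytic part of the synthase, had 71 in NT and 38 in LPS, and 5.21% of all NT intervals had a value as high. The NT interval ran from 80135887 to 80140337 on chromosome 10, its summit lay 134 bp from the lower end of the annotated gene, but at -3443 bp from the start in the promoter table, and the Cbarp gene met the same interval. Atp5b, the beta subunit, had 48 and 20, with the NT summit 11 bp before its start. Atp5a1, the alpha subunit, had 48 in NT, shared with Haus1, and no LPS interval, the only member with an NT value over 40 that lacked one.

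All 5 genes of the F1 part had an NT interval (Wilson interval 56.6 to 100%), since Atp5e (28) and Atp5c1 (25) did too. The intervals at Atp5e and Atp5c1 were shared with Prelid3b and Kin. The nearest gene end to the summit was that of Haus1 at Atp5a1, and the gene's own at Atp5b, Atp5c1, Atp5d and Atp5e. Of the 12 remaining genes of the complex, 3 had an NT interval (25%, 8.89 to 53.2%), beside 38.2% of all protein-coding genes. The split was chosen after the values were seen, so these Wilson intervals do not test it. Those 3 were Atp5j2 (23), Atp5g3 (22) and Atp5j (20). The interval at Atp5j, a stalk subunit, had its summit 43 bp from an end of Gabpa, which encodes an ETS factor known to activate respiratory chain genes. Atp5g2, a gene of the membrane ring, was the single member with an interval in LPS alone. Its value of 9 was below 11, the lowest value in the NT list, 98.8% of LPS intervals had a value as high, and the summit lay 1393 bp before the start.

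**Figure D1:**
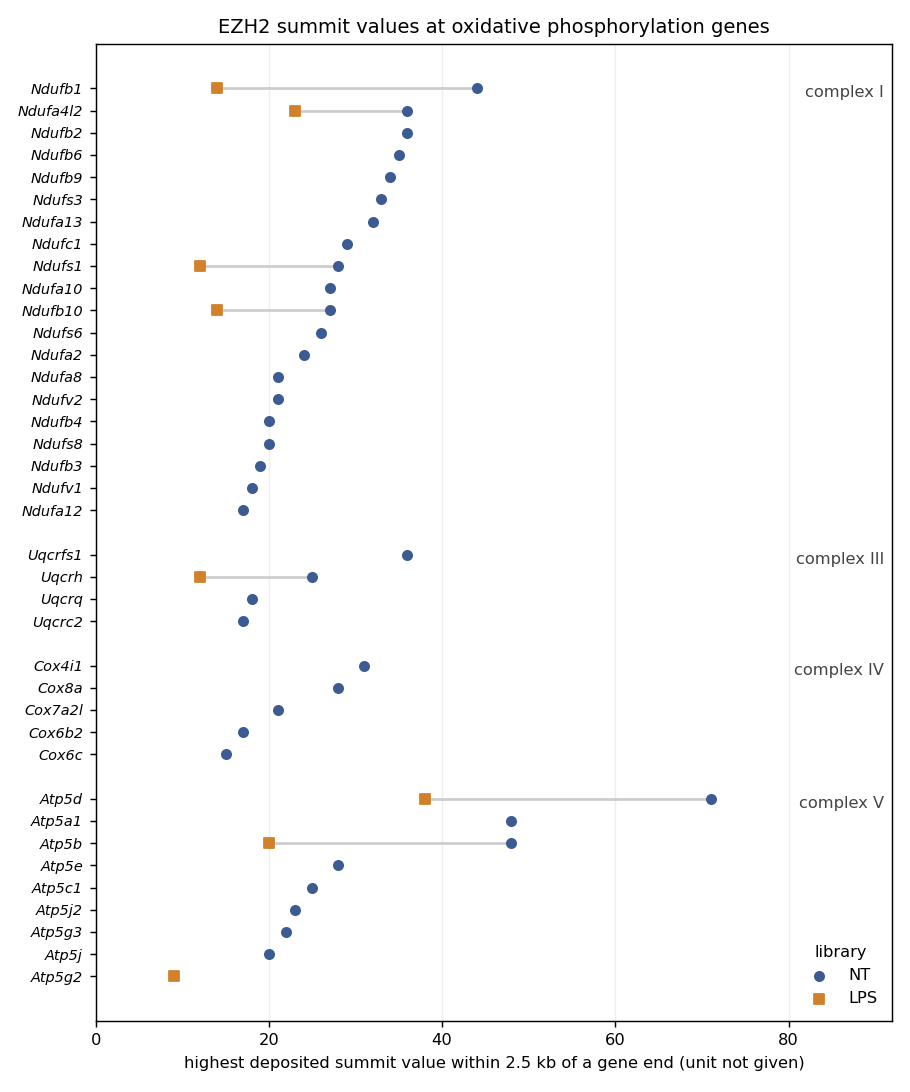
Highest deposited summit value (x axis, unit not given) of oxidative phosphorylation genes with an interval within 2.5 kb of a gene end, in rows by complex, with NT as circles and LPS as squares. NT values run from 15 (Cox6c) to 71 (Atp5d), LPS squares appear at 8 genes, and Atp5g2 has an LPS square alone.

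**Figure D2:**
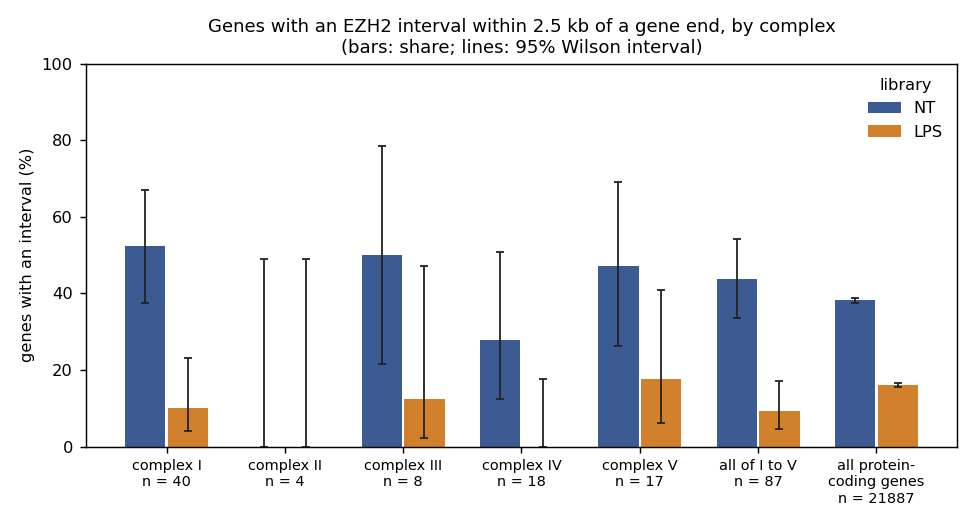
Share of genes (y axis, %) with an NT or LPS interval in complexes I to V, in the 87 genes together and in all protein-coding genes, with 95% Wilson intervals as lines. NT shares run from 0 of 4 in complex II to 52.5% in complex I, and the lines of the complexes overlap.

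Members with an NT interval had an LPS interval at 7 of 38 genes (18.4%, 9.22 to 33.4%), beside 40.9% of all protein-coding genes with an NT interval. The counting interval of the members did not reach that share. The NT values of members and other genes differed, so genes were also set side by side at like NT value. At NT values up to 20, 0 of 10 members and 12.8% of 1519 other genes had an LPS interval. Over 20 to 30 it was 3 of 16 (18.8%) and 25.4%, over 30 to 40 it was 1 of 8 (12.5%) and 46.2%, and over 40 it was 3 of 4 (75%) and 89.3%. The members' share was the lower in each of the 4 ranges, but all their intervals were wide. With 46.2% inside the members' 2.24 to 47.1% in the range over 30 to 40, and the other genes' shares inside the members' intervals elsewhere too, no range separates the groups beyond counting error.

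**Figure D3:**
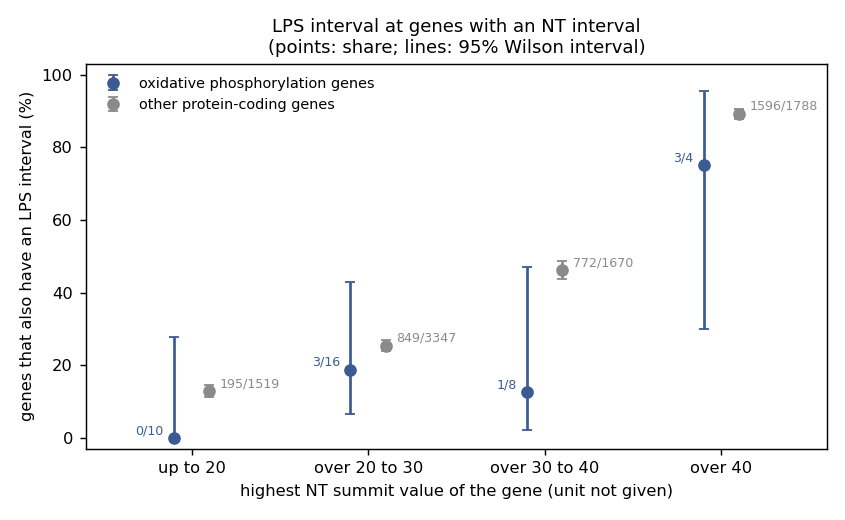
Share of genes with an NT interval that also have an LPS interval (y axis, %) by the gene's highest NT summit value (x axis, unit not given), for oxidative phosphorylation genes and other protein-coding genes, with counts beside the points and 95% Wilson intervals as lines. The other genes' share is higher in each next range, and the members have 0 of 10, 3 of 16, 1 of 8 and 3 of 4.

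Among the 7 members with both, the ratio of LPS to NT value ran from 0.318 to 0.639 with a median of 0.48, and over other protein-coding genes with both the median was 0.491. Between Ndufb1 and Ndufa4l2 lay Atp5b (0.417), Ndufs1 (0.429), Uqcrh (0.48), Ndufb10 (0.519) and Atp5d (0.535). The ratio is not scaled to depth. At Ndufb10 both summits lay 1799 bp from an end of the ribosomal protein gene Rps2, which shared the intervals, and 4295 bp past the start of Ndufb10. At Ndufs1 the intervals (28 in NT, 12 in LPS) were shared with Eef1b2, a translation elongation factor gene.

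Such sharing was common. Of the 38 members with an NT interval, 26 (68.4%) had one that also met the window of another protein-coding gene, against 37.1% of other genes with an NT interval. The nearest annotated gene end to the highest NT summit was the member's own at 24 genes and a neighbour's at 14. These neighbours included Mrpl36 beside Ndufs6, Smim27 beside Ndufb6, Tatdn1 beside Ndufb9, Fam126b beside Ndufb3 and Gdf9 beside Uqcrq. No other gene met the interval at 12 members, among them Uqcrfs1 (36), Ndufb2 (36), Ndufc1 (29), Cox8a (28) and Ndufa10 (27).

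The crowding belongs to the genes themselves. Another protein-coding gene had an end within 2.5 kb of 57 of the 87 members (65.5%), against 35.1% of other genes, and members were short, with a median length of 7131 bp against 17237.5 bp. A divergent start within 1 kb was found for 18 of 70 members (25.7%) and 7.44% of other genes. Among genes with another gene end within 2.5 kb, 52.6% of members and 52.1% of other genes had an NT interval. Among genes without such a neighbour the shares were 26.7% and 30.7%. For LPS these shares were 12.3% (6.08 to 23.2%) and 19.1% with a neighbour. Without one they were 3.33% (1 of 30 members, 0.591 to 16.7%) and 14.6%. Both LPS intervals of the members held the other genes' share. Set beside genes of like crowding, the NT share of the members was thus close to that of other genes, with Wilson intervals of 39.9 to 65.0% and 14.2 to 44.4% that held it. The part of the neighbours in the members' intervals was not tested further.

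Where the start is known, most NT intervals covered it, at members as at other genes. The promoter table gave a start for 28 of the 38 members. The highest NT interval covered the start at 23 of these (82.1%), against 76.9% of other genes, and its summit lay within 500 bp of the start at 21 (75%), against 69.2%. The summit lay past the start in the direction of transcription at 20 of 28 members (71.4%) and 70.6% of other genes, with a median distance of 78.5 and 131 bp. The 5 members whose interval missed the start were Atp5d, Ndufb6, Ndufb10, Ndufs6 and Ndufs8, each with its interval shared with another gene. In LPS the interval covered the start at 3 of 6 members (50%), Atp5b, Ndufb1 and Uqcrh, against 67.3% of other genes.

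**Figure D4:**
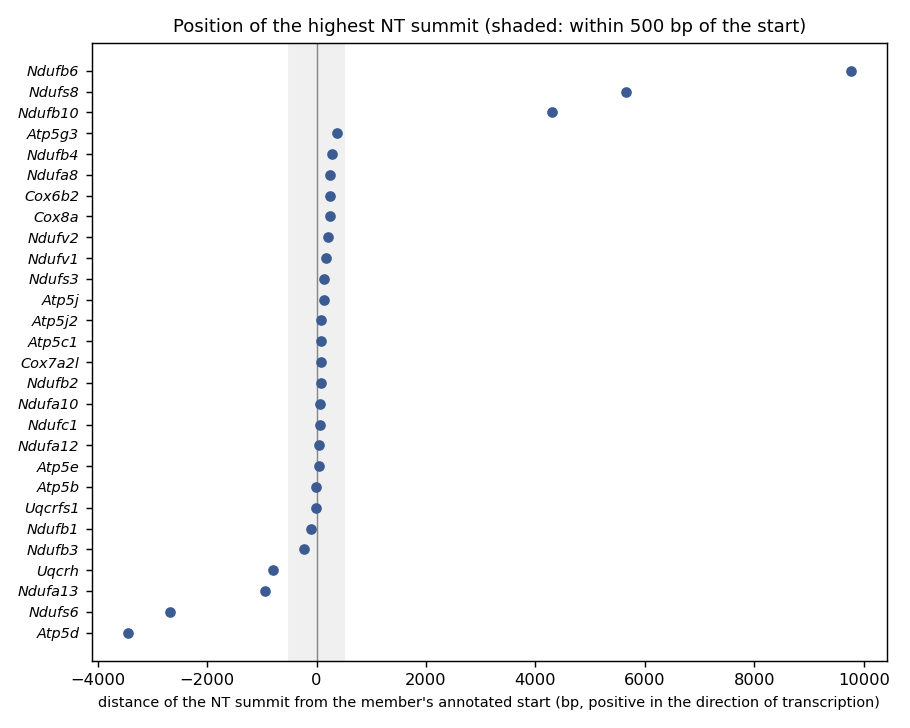
Distance in bp (x axis) of the highest NT summit from the annotated start of each of the 28 members with a known start, positive in the direction of transcription, with 1 row for each gene. At 21 genes the point lies in the shaded 500 bp on either side of the start, and Ndufb6, Ndufs8, Ndufb10, Ndufs6 and Atp5d lie over 2 kb away.

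Member promoters were richer in CpG than most. Over the 70 members in the promoter table, the 300 bases held a median of 19 CpG, against 13 in the promoters of 17422 other genes. An NT interval met 24 of the 70 promoters (34.3%), beside 32.5% of all promoters, and an LPS interval met 3 (4.29%), beside 12.1%. Promoters of members met by an NT interval had a median of 21.5 CpG, and those not met 17, while the medians were 24 and 6 for other genes. In bins of CpG count chosen after the data were seen, an NT interval met 4 of 21 member promoters (19.0%) with 6 to 15 CpG, 12 of 31 (38.7%) with 16 to 25 and 8 of 15 (53.3%) with 26 or more. For other genes the shares were 25.5%, 52.8% and 64.0%. Within members as among other genes, promoters with more CpG were more often met, and in these 3 bins the members' share was the lower, inside counting intervals that held the other genes' share. None of the 3 member promoters with fewer CpG was met.

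For LPS the shares in the same bins were 4.76%, 3.23% and 6.67% for members, which is 1 promoter each, and 10.4%, 18.1% and 23.7% for other genes. The Wilson interval of the members held the other genes' share in the lowest and highest of these bins, and its upper end of 16.2% was under 18.1% in the middle one. No test across conditions was possible with 1 library each.

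**Figure D5:**
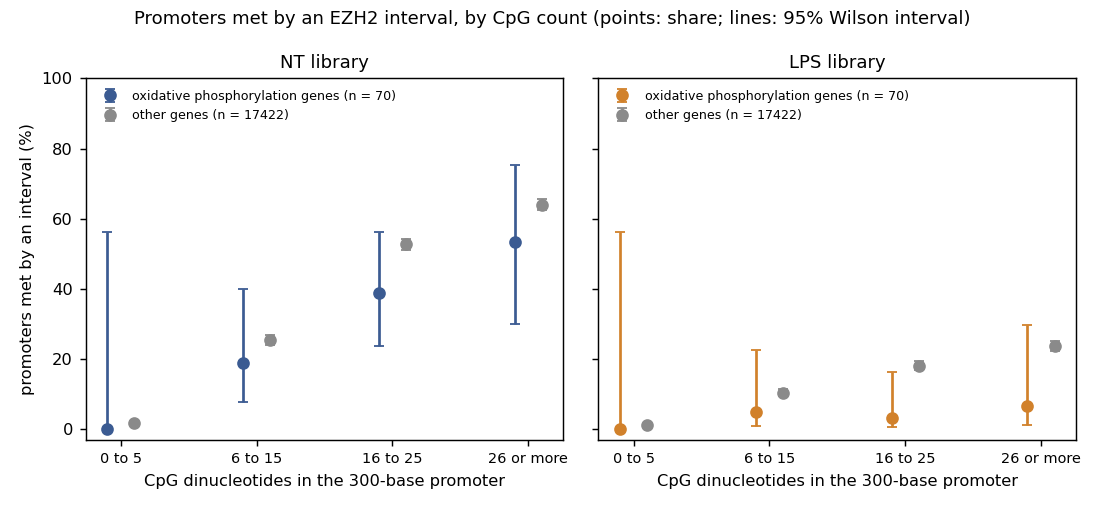
Share of 300-base promoters met by an interval (y axis, %) by CpG count (x axis), NT on the left and LPS on the right, for 70 oxidative phosphorylation genes and 17422 other genes, with 95% Wilson intervals as lines. NT shares of members rise to 53.3% at 26 or more CpG, and LPS shares of members stay at or under 6.67%.

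Letters known from respiratory chain promoters were searched on both strands of the same 300 bases. A site of 10 letters of NRF1 with 1 free position, a factor known to drive respiratory chain genes, stood in 16 of 70 member promoters (22.9%) and 6.53% of other promoters. CCGGAAG, the ETS core bound by GABP, stood in 22.9% and 11.9%. AAGATGGCG, bound by YY1, stood in 8.57% and 1.92%. CCAAT, bound by NF-Y, was in 42.9% and 39.0%, and GGGCGG, bound by SP factors, in 40% and 46.3%. The NRF1 letters were in 3 of 24 member promoters met by an NT interval (12.5%) and in 13 of 46 not met (28.3%), and the ETS letters in 16.7% and 26.1%. Among other genes the order was the opposite, 9.23% and 5.23% for NRF1 and 19.0% and 8.41% for ETS. The NRF1 and ETS letters themselves contain CpG. Median CpG counts of met and unmet promoters were 24 and 6 for other genes, and 21.5 and 17 for members. Shares of the letters were not compared at like CpG count, so the part of CpG content in these differences was not tested. Of the promoters shown above, Sdha has the NRF1 letters at 3 places and no interval, Cox8a the ETS letters at 2 places, and Uqcrh at 1. Matches are a description of letters and not of binding, and the members are few.

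Further lists of nuclear genes with mitochondrial products also had more genes met in NT than in LPS, as had all genes (38.2% and 16.2%). Of 50 assembly factors of the complexes, 27 were met in NT (54.0%) and 5 in LPS, with Sco2, a copper chaperone of complex IV, at 73 in NT and none in LPS, Cox18 at 46 and none, and Foxred1, a complex I factor, at 43 and 11. Of 19 enzymes of the citric acid cycle and its entry, 8 had one in NT and 1 in LPS. Their highest values were 35 at Mdh2 and 34 at Dlst with none in LPS, and 32 in NT and 23 in LPS at Pcx, the pyruvate carboxylase. Of 16 genes of coenzyme Q synthesis and cytochrome c, 7 were met in NT, led by Coq9 (40), Coq7 (30) and Pdss1 (30), and 1 in LPS. Of 78 mitochondrial ribosomal protein genes, 40 (51.3%, 40.4 to 62.1%) had one in NT and 4 (5.13%, 2.01 to 12.5%) in LPS. Their highest NT values were 52 at Mrpl57, 49 at Mrps23, which had 29 in LPS, and 39 at Mrpl38. The NT counting intervals of the assembly factors and mitochondrial ribosomal genes lay above the share of all genes. The LPS counting interval of the mitochondrial ribosomal genes lay below it. No gene of these lists had an interval in LPS alone.

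Regulators of mitochondrial transcription and biogenesis were met at 15 of 21 genes in NT (71.4%, 50 to 86.2%) and at 5 in LPS (23.8%, 10.6 to 45.1%). Of all protein-coding genes 38.2% were met in NT and 16.2% in LPS. Gabpa (20) was counted here through the interval that also met Atp5j. Ppargc1a, a coactivator of mitochondrial biogenesis, had 64 in NT and 40 in LPS, above every member but Atp5d in NT and above every member in LPS. Esrra, a nuclear receptor that works with it, had 44 and 24, and Ssbp1, a mitochondrial DNA-binding protein, 43 and 12. The related coactivators Ppargc1b (28 and 14) and Pprc1 (24 and 14) also had intervals in both libraries.

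Ribosomal protein and proteasome genes, taken by symbol, are given for comparison, beside 38.2% of all protein-coding genes in NT and 16.2% in LPS. Of 86 genes with a symbol of Rpl or Rps and a number, copies and tissue forms included and S6 kinases and binding proteins left out after their values were seen, 57 (66.3%) were met in NT and 19 (22.1%) in LPS. Of 39 proteasome genes, 23 (59.0%) were met in NT and 4 (10.3%) in LPS, with Psmc3ip left out in the same way. The share of NT genes that also had an LPS interval was 33.3% (22.5 to 46.3%) for the ribosomal and 17.4% (6.98 to 37.1%) for the proteasome genes, against 18.4% for the oxidative phosphorylation genes, with intervals that overlap. It was 18.5% (8.18 to 36.7%) for the assembly factors and 10% (3.96 to 23.1%) for the mitochondrial ribosomal genes. For the citric acid cycle, coenzyme Q and regulator lists it was 12.5%, 14.3% and 33.3%. A low share was thus not particular to the oxidative phosphorylation genes. These sets are not fully separate, since the intervals at Ndufb10 were also counted for Rps2. Sharing with neighbours was not examined for the genes of these further lists.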

How the data were processed

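Untreated and LPS-treated macrophages had 1 EZH2 library each, and input DNA was not analysed here. BWA, SICER and the build mm10 are listed in the submitters' processing notes, with no role or version. Per the file headers, intervals and summits were listed for each library (9643 in NT, 4651 in LPS). The deposited score was given by the authors at each summit. Read depth, scaling and use of the input are not given in the sources used here. The stimulated track is named TLR and was assigned to LPS as the only stimulated EZH2 sample, which limits every LPS value. Starts were shifted to 1-based mm10 positions. Gene positions came from RefSeq (GRCm38.p6), and a promoter and strand were matched for 70 of the 87 genes, with none used for, among others, Atp5a1, Atp5mpl, Cox4i1, Cox4i2, Cox6a2, Cox6c, Cox8c, Ndufa2, Ndufa4l2, Ndufb4c, Ndufb9, Ndufs1, Sdhc, Uqcrb, Uqcrc2 and Uqcrq. Ndufb4b and Ndufb4c are near copies of Ndufb4, and how reads of copies were placed is not given. Values of 1 member are not reported here, though it is in the counts.

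A gene counted when an interval met the window of 2.5 kb on each side of either gene end by at least 1 bp, computed in Python 3.11.15 with pandas 2.3.3 and tested on simulated intervals. Its value is the highest summit value among those intervals. Genes were named by rule: the 3 highest NT values of each complex, all with an LPS interval, all 8 tissue or condition isoforms, and the 3 highest of each further list, with others chosen after their values were seen. Members and lists were chosen with earlier results of these data known. Alternatives were other windows, overlaps and thresholds, unshared intervals, and the set without the isoforms.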

Additional observations from a re-analysis of the deposited data

How the results depend on the processing

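No paired analysis was possible because there was only 1 EZH2 library for each condition. Of 66 recomputed values, 49 stayed within 1.5 times of the reported count, or for the ratio within its SD over members of 0.102, and 17 did not. With only the intervals that reached their own library's median value, 18 members had an NT interval (20.7%, all genes 21.3%), 3 an LPS interval (3.45%, all genes 9.75%), 3 both, 15 NT alone and 0 LPS alone. With the NT list reduced to the length of the LPS list, 18 had an NT interval (20.7%, all genes 20.6%), 12 in NT alone and 2 in LPS alone. With intervals that met no other gene's window, 14 had an NT interval (16.1%, all genes 25.3%), 3 an LPS interval (3.45%, all genes 11.8%), 1 both, 13 NT alone and 2 LPS alone. With the starts of the promoter table only, which hold 70 members, 5 had an LPS interval (7.14%, all genes 14.6%) and 4 both. With the summit inside the window 2 had an interval in LPS alone. Ndufa4l2 was among them, as its NT summit lay 3430 bp from a gene end and an LPS summit of the same stretch, at 127509408, lay inside the window. With intervals covering an annotated gene end, an alternative chosen after seeing the data, 0 had an interval in LPS alone. At these other settings no share of all genes was computed for both, NT alone or LPS alone. Those counts therefore do not show whether the higher share of members in NT alone holds there. Stricter settings use fewer intervals by construction, and the cause was otherwise not tested. Unknown depth limits any reading of a missing LPS interval.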
